A study of Ovis aries with 26 samples.

Results

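The comparison of 16-cell with 4-cell sheep embryos covered 10727 genes, out of 30186 in the deposited table. They were the genes with at least 1 FPKM (fragments per kilobase of gene, scaled to the library's depth) in at least 2 of the 6 libraries compared. There were 3 libraries of 4-cell embryos and 3 of 16-cell embryos, among 26 libraries of 8 stages from the mature oocyte (MII) to the expanded blastocyst. All embryos of the series were made by in vitro fertilization of Ovis aries oocytes, left with sperm for 16 h at 38.5 ℃ under 5% CO2 and then cultured. Both groups were unmanipulated embryos that differed by label in stage alone, and the sources used here do not give the number of embryos in a library, the breed or the time of collection. RNA was taken by direct lysis and amplified by the Smart-seq2 protocol, which copies polyadenylated RNA from very small samples. Nothing in the labels says that the 3 libraries of a stage came from separate fertilizations, so every p-value here rests on the spread among libraries that may be technical repeats.

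An early embryo starts out with RNA that the oocyte stored, and replaces it by RNA transcribed from its own genome. The change has 2 sides, the degradation of maternal transcripts and zygotic genome activation, in which the embryonic genome becomes transcriptionally active. In ruminants the main wave of activation falls around the 8-cell and 16-cell stages, so 4-cell embryos stand before it and 16-cell embryos within it. The series was made to study RNA splicing and alternative polyadenylation over this window. In such libraries a transcript can gain signal either by new transcription or by elongation of its poly(A) tail, and the 2 cannot be told apart here. Fewer cells with a transcript and less of it per cell cannot be told apart in whole-embryo libraries either.

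The 6 libraries held between 30369697 and 34387449 reads assigned to genes, as recovered from the steps between FPKM values. The 4-cell libraries were close to each other, with a Pearson r of 0.960 to 0.974 across the tested genes on the log2(FPKM + 1) scale. The 16-cell libraries spread more widely, from 0.878 to 0.949. Library 16C 3 stood apart: its r was 0.858 with the mean 4-cell profile, 0.841 with the 8-cell and 0.845 with the morula profile. The values were 0.912, 0.939 and 0.690 for 16C 1 and 0.901, 0.918 and 0.719 for 16C 2. Genes are not independent replicates, and these r values are descriptions. The number of oocyte genes present was similar in all 6 libraries and so did not check which stage a library was. Of 43 oocyte and maternal-effect genes in the table, 38 or 39 reached 1 FPKM in each 4-cell library and 38 to 40 in each 16-cell library. Inner cell mass and pluripotency genes differed between the stages. Of 27 in the table, 9, 9 and 7 reached 1 FPKM in the 4-cell libraries and 14, 16 and 16 in the 16-cell libraries. The blastocyst lineage markers CDX2 and SOX17 were listed at 0 in all 6 libraries.

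Between the 4-cell and 16-cell stages 875 genes rose and 464 fell, with the activation factors ZSCAN4, ARGFX and KLF17 on the rising side and SRGN, MMP1 and PTTG1 on the falling side. A gene was called when its adjusted p was under 0.05 (limma, Benjamini-Hochberg over the 10727 genes) and the stage means of log2(FPKM + 1) were at least 1 apart. Called higher were 8.16% of the tested genes and called lower 4.33%. With no minimum difference the counts were much closer, at 1320 genes higher and 1137 lower (12.3% and 10.6%). The 16-cell libraries lay entirely above the 4-cell libraries in 1446 genes (13.5% of those tested) and entirely below them in 1521 (14.2%). By this separation of libraries gains and losses were about equally many, while they differed in size. A difference of at least 2 was seen in 283 called gains and 32 called losses, and one of at least 3 in 117 gains and 2 losses. On this scale a loss cannot exceed the 4-cell value itself, while a gain has no such limit. The median 4-cell level of the tested genes was 5.77 FPKM, so a loss of 3 was out of reach for most of them.

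The split between gains and losses moved with the scaling and with the libraries used. Gains were 65.3% of the calls on the deposited FPKM scale, and 53.6% (932 higher, 808 lower) on the TPM scale, which gives each library the same sum. That scaling moved the median difference of all tested genes from -0.02 to -0.12. Of the calls above, 784 of the 875 gains (89.6%) and 459 of the 464 losses (98.9%) were also called under all 3 alternative scalings. A fit on the 6 libraries alone, with its own estimate of the spread, called 360 genes higher and 137 lower. Of the 223 called genes that are named here or belong to a list, 101 were also called in that fit, among them 8 of the 10 largest losses.

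**Figure D1:**
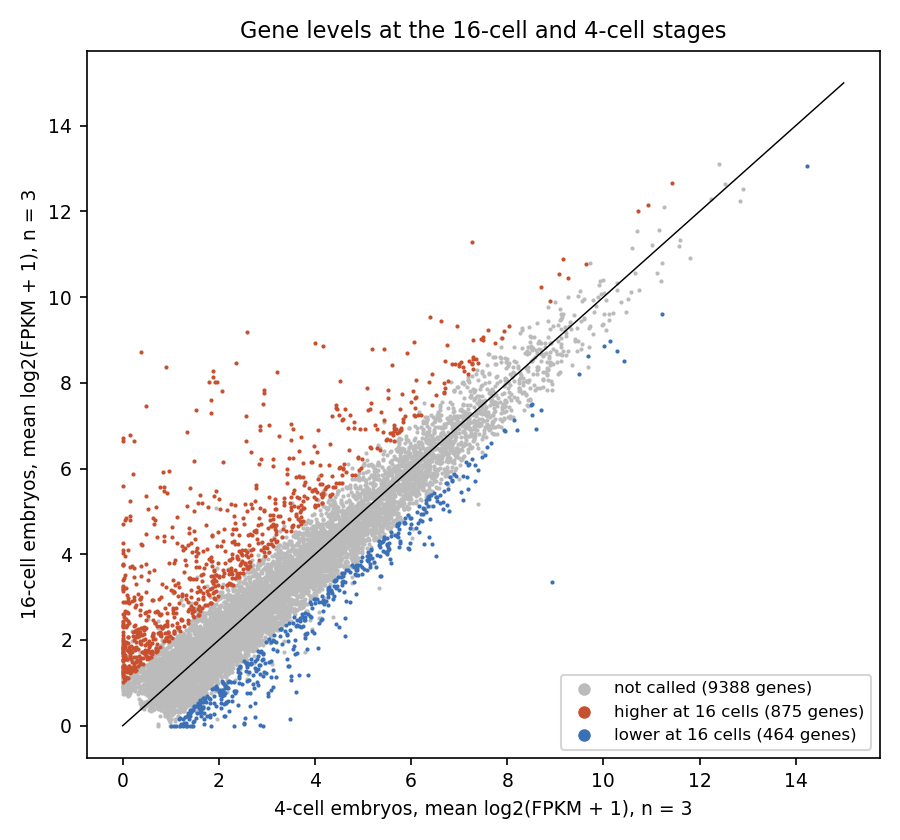
Mean log2(FPKM + 1) of each of the 10727 tested genes in 3 libraries of 4-cell embryos (x axis) and 3 of 16-cell embryos (y axis), with the line of equality. The 875 genes higher at 16 cells (red) reach further from the line than the 464 lower genes (blue), and many of them start near 0.

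The 10 largest gains under the naming rule were ZIM3, ARGFX, BECN2, GCSH, ZSCAN4, SUPT4H1, KLF17, ZNF596, ZFP42 and GM2A. That rule took only called genes whose libraries did not overlap between the stages, so separation as such was set by the choice. ZSCAN4, a zinc finger protein that marks genome activation in mouse and human embryos, was at 0, 1.32 and 17.0 FPKM in the 4-cell libraries. In the 16-cell libraries it was at 219, 322 and 249 FPKM. It rose by 6.23 ± 0.75 (SE) on the log2(FPKM + 1) scale, with an adjusted p of 1.6e-06, and every 16-cell library was far above every 4-cell library. ARGFX, a paired-like homeobox gene of the early embryo, was at 0.572, 0.436 and 0.188 FPKM at 4 cells. At 16 cells it was at 42.5, 88.9 and 1417 FPKM, a rise of 6.99 ± 0.75 (adjusted p = 2.9e-07). The groups were far apart, and 16C 3 was well above the other 16-cell libraries. KLF17, a Kruppel-like factor of preimplantation embryos, was listed at 0, 0 and 0.548 FPKM at 4 cells and was at 55.1, 70.4 and 50.1 FPKM at 16 cells. Its rise of 5.67 ± 0.34 (adjusted p = 2.8e-11) was similar in all 3 of the 16-cell libraries. ZFP42, the pluripotency marker also called REX1, was at 0.0762, 0.223 and 0.0365 FPKM at 4 cells and at 18.9, 28.3 and 92.5 FPKM at 16 cells. It rose by 5.09 ± 0.35 (adjusted p = 2.7e-10), again with the highest value in 16C 3.

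ZIM3 and ZNF596 encode zinc finger proteins. ZIM3 had the largest difference of all under the naming rule. It was at 0.378, 1.17 and 1.16 FPKM at 4 cells and at 211, 448 and 382 FPKM at 16 cells, a rise of 7.48 ± 0.54 (adjusted p = 4.6e-10). ZNF596 was at 2.26, 2.66 and 2.88 FPKM at 4 cells and at 132, 220 and 131 FPKM at 16 cells, a rise of 5.45 ± 0.45 (adjusted p = 5.3e-09). In both genes the libraries of a stage lay close together and the stages were widely separated.

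SUPT4H1, a subunit of the DSIF complex that RNA polymerase II needs for elongation, was at 0.767, 4.88 and 11.8 FPKM at 4 cells. Its 16-cell values were 312, 744 and 186 FPKM, a rise of 6.11 ± 0.70 (adjusted p = 8e-07). Like ZSCAN4, it was uneven between the 4-cell libraries and in the same order, lowest in 4C 1 and highest in 4C 3. BECN2, a relative of the autophagy protein Beclin 1, was listed at 0 in all 4-cell libraries and was at 49.9, 100.2 and 196 FPKM at 16 cells (difference 6.65 ± 0.58, adjusted p = 1.2e-08). GM2A, a lysosomal activator of ganglioside breakdown, was at 1.43, 0.495 and 0.544 FPKM at 4 cells and at 61.8, 51.5 and 65.8 FPKM at 16 cells. Its rise was 5.09 ± 0.25 (adjusted p = 4.3e-13), and its 16-cell libraries were nearly level. GCSH, the H protein of the glycine cleavage system, was at 2.15, 4.04 and 2.18 FPKM at 4 cells and at 76.0, 104.8 and 2770 FPKM at 16 cells (difference 6.26 ± 0.85, adjusted p = 9.5e-06). As with ARGFX, its value in 16C 3 was far above the others. All 10 of these gains were called under each of the 18 alternative settings.

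**Figure D2:**
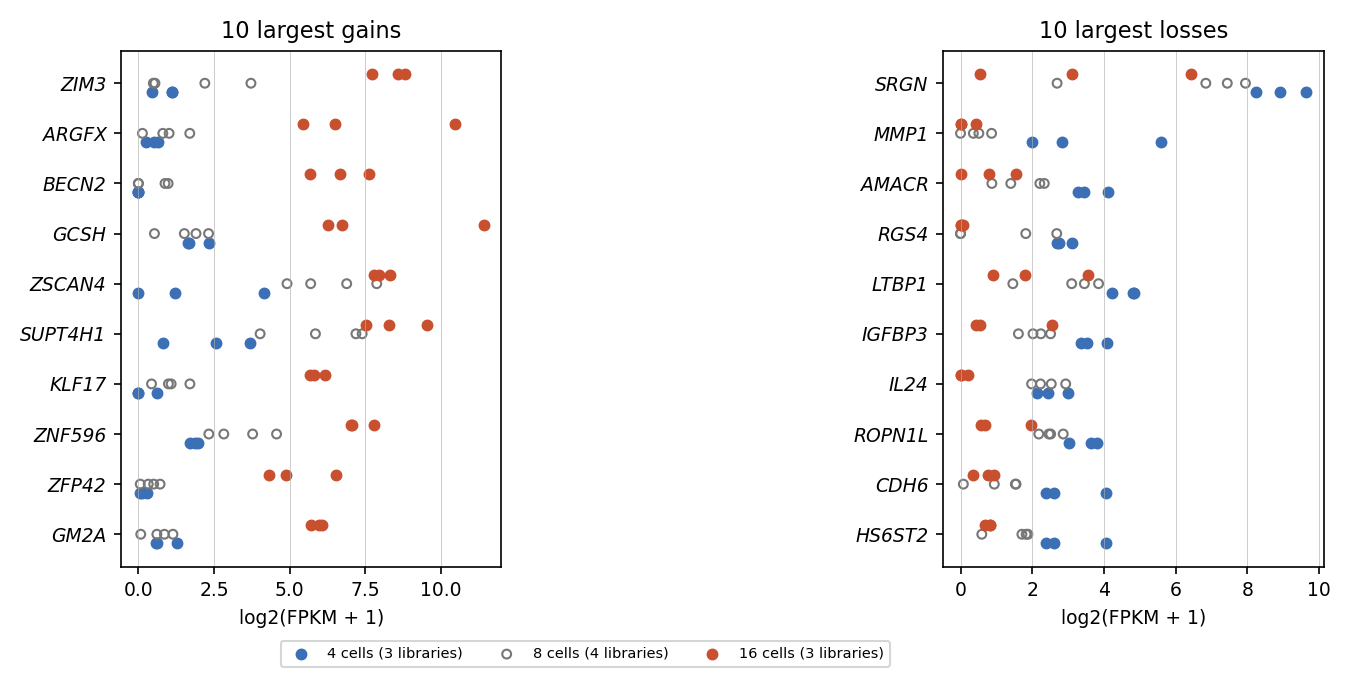
log2(FPKM + 1) of the 10 named genes with the largest gains (left) and the 10 with the largest losses (right) in each library, with 3 libraries at 4 cells (blue), 4 at 8 cells (open) and 3 at 16 cells (red). The 8-cell libraries lie near the 4-cell libraries for most gains, and between the stages for ZSCAN4 and SUPT4H1. For the losses they lie mostly between the stages.

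The 6 most abundant named genes that rose were mitochondrial genes, a histone variant and the RNA processing genes UTP11 and ERH. They are a small part of the abundant gains, since 102 genes with a mean of at least 100 FPKM over the 6 libraries rose. H2AZ1 encodes histone H2A.Z, a variant found at promoters and regulatory regions. It was at 205, 99.5 and 178 FPKM at 4 cells and at 1407, 3173 and 3415 FPKM at 16 cells, a rise of 4.00 ± 0.42 (adjusted p = 2.5e-07) with no overlap. UTP11, a factor of small ribosomal subunit assembly, was at 479, 522 and 627 FPKM at 4 cells and at 787, 1433 and 2904 FPKM at 16 cells (1.46 ± 0.33, adjusted p = 0.0027). ERH, a small conserved protein that takes part in RNA processing, was at 812, 812 and 770.4 FPKM at 4 cells and at 1287, 1302 and 3162 FPKM at 16 cells (1.13 ± 0.24, adjusted p = 0.0017). The groups did not overlap in either gene, but without 16C 3 both fell short of the minimum difference, at 0.98 for UTP11 and 0.70 for ERH.

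The mitochondrial genes were listed under locus tags and were given the symbols of the RefSeq table. ATP6, a subunit of ATP synthase, was at 3062, 2502 and 2675 FPKM at 4 cells and at 7246, 4897 and 7637 FPKM at 16 cells (1.24 ± 0.25, adjusted p = 0.001). CYTB, of respiratory complex III, was at 741, 700.3 and 356 FPKM at 4 cells and at 1736, 1345 and 2879 FPKM at 16 cells (1.73 ± 0.40, adjusted p = 0.0028). ND4, of complex I, was at 1992, 2152 and 1754 FPKM at 4 cells and at 5897, 3419 and 4594 FPKM at 16 cells (1.21 ± 0.28, adjusted p = 0.0029). It fell to 0.79 under quantile normalization. All the 16-cell values lay above the 4-cell values in these 3 genes. The 13 protein genes of the mitochondrial genome together took 1.76% to 2.21% of the summed FPKM at 4 cells and 3.02% to 4.49% at 16 cells. An exact two-sided permutation test gave p = 0.1, the smallest that 3 against 3 libraries allow. Of the 12 that were tested, 4 rose, and this group was taken after its values were seen. COX1, of complex IV, did not share the gain: it was at 545, 289.5 and 332 FPKM at 4 cells and at 231, 245 and 264 FPKM at 16 cells, a difference of -0.60 ± 0.37 (adjusted p = 0.26).

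Gains more often carried a gene across the detection threshold than losses did. In 204 genes all 4-cell libraries were under 1 FPKM and all 16-cell libraries at or above it, while 90 genes went the other way. Called higher were 158 of the 204, and called lower 40 of the 90. Both counts depend on each single library having passed: without 16C 1 they were 360 and 172, and without 16C 3 they were 355 and 173. Without 16C 2 there were 186 losses, and without 4C 2 there were 165. Besides ARGFX, BECN2, KLF17 and ZFP42, the most abundant named genes that appeared were FOLR1 and CUL2. FOLR1, a folate receptor, was at 0, 0.0605 and 0.0627 FPKM at 4 cells and at 14.1, 11.6 and 114 FPKM at 16 cells (4.75 ± 0.48, adjusted p = 1.3e-07). CUL2, a scaffold of ubiquitin ligases, was at 0.410, 0.609 and 0.641 FPKM at 4 cells and at 21.0, 16.0 and 63.9 FPKM at 16 cells (4.22 ± 0.35, adjusted p = 4.3e-09). By the way these genes were chosen, their groups could not overlap. The number of genes at 1 FPKM or more was 9457 ± 87.1 (SD, n = 3) at 4 cells and 9796 ± 98 (SD, n = 3) at 16 cells, and an exact two-sided permutation test gave p = 0.1, the smallest possible. This count depended on the scaling: the means differed by 339 genes on the FPKM scale and by 52 on the TPM scale.

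SRGN, MMP1, AMACR and RGS4 had the largest losses under the naming rule, and several of the 10 encode secreted or cell surface proteins, which are given here first. SRGN encodes serglycin, the core protein of proteoglycans in secretory granules. It was at 801, 477 and 305 FPKM at 4 cells and at 7.69, 84.9 and 0.452 FPKM at 16 cells, a difference of -5.57 ± 1.19 (adjusted p = 0.0015). The 16-cell values differed widely among themselves, and all were under the 4-cell values, as the naming rule required. MMP1, an interstitial collagenase, was at 47.5, 3.0 and 6.07 FPKM at 4 cells and at 0.336, 0.0159 and 0 FPKM at 16 cells (-3.33 ± 0.69, adjusted p = 0.0012). LTBP1, which binds latent TGF-beta, was at 27.1, 17.7 and 27.4 FPKM at 4 cells and at 0.883, 10.7 and 2.45 FPKM at 16 cells (-2.54 ± 0.54, adjusted p = 0.0015). In both the groups were separate, again by the rule, and MMP1 was highest by far in 4C 1. IGFBP3, a carrier of insulin-like growth factors, was at 16.0, 10.5 and 9.30 FPKM at 4 cells and at 0.357, 0.458 and 4.85 FPKM at 16 cells (-2.48 ± 0.40, adjusted p = 8.7e-05). CDH6, a cadherin, was at 15.7, 5.15 and 4.19 FPKM at 4 cells and at 0.282, 0.923 and 0.696 FPKM at 16 cells (-2.33 ± 0.45, adjusted p = 0.00057). HS6ST2, a heparan sulfate sulfotransferase, was at 15.6, 5.14 and 4.23 FPKM at 4 cells and at 0.590, 0.774 and 0.758 FPKM at 16 cells (-2.25 ± 0.40, adjusted p = 0.00024). CDH6 and HS6ST2 also had their highest value in 4C 1.

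The other losses among these were of mixed function. IL24, a cytokine gene, was at 4.46, 6.94 and 3.41 FPKM at 4 cells and at 0, 0.155 and 0 FPKM at 16 cells (-2.46 ± 0.28, adjusted p = 8e-07). RGS4, a regulator of G protein signalling, was at 5.47, 5.71 and 7.65 FPKM at 4 cells and at 0, 0.0534 and 0 FPKM at 16 cells (-2.83 ± 0.81, adjusted p = 0.014). These genes were nearly gone from the 16-cell libraries. AMACR, an enzyme of branched-chain fatty acid oxidation, was at 16.4, 8.66 and 9.91 FPKM at 4 cells and at 0, 1.9 and 0.739 FPKM at 16 cells (-2.84 ± 0.42, adjusted p = 2.6e-05). Its mean was back at 24.4 ± 9.17 FPKM (SD, n = 3) in morulae. ROPN1L, a relative of the sperm flagellar protein ropporin, was at 11.6, 13.1 and 7.13 FPKM at 4 cells and at 0.472, 2.90 and 0.613 FPKM at 16 cells (-2.43 ± 0.39, adjusted p = 8.3e-05). MX1, an interferon-induced GTPase and the sixth most abundant named gene lost past the threshold, was at 1.95, 3.5 and 5.35 FPKM at 4 cells and at 0, 0.162 and 0.382 FPKM at 16 cells (-1.91 ± 0.48, adjusted p = 0.0059). With a pseudocount of 5 IL24 and MX1 fell short of the minimum difference, at -0.96 and -0.71. In the fit on the 6 libraries alone MMP1 (adjusted p = 0.054) and LTBP1 (adjusted p = 0.053) missed the threshold.

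Some markers of cumulus and granulosa cells, which surround the oocyte, were lower at 16 cells. The summed level of the 25 markers in the table was 791, 311 and 399.7 FPKM in the 4-cell libraries and 90.4, 305.3 and 176 FPKM in the 16-cell libraries. Over all tested genes 4.33% fell and 8.16% rose, and limma-voom called 685 lower and 960 higher of 10722. Of the 18 markers that were tested, 2 fell and none rose by the limma test (8 and 0 at an unadjusted p under 0.05, 3 and 0 called by limma-voom), and their median difference was -0.73 against -0.02 for all tested genes. Without 16C 2 there were 6 lower and without 4C 2 there were 4. FSHR, the receptor for follicle-stimulating hormone, was at 6.43, 4.63 and 4.89 FPKM at 4 cells and at 0, 0 and 1.54 FPKM at 16 cells (-2.20 ± 0.43, adjusted p = 0.00066). SERPINE2, a protease inhibitor, was at 84.1, 62.7 and 78.8 FPKM at 4 cells and at 20.2, 45.1 and 27.9 FPKM at 16 cells (-1.31 ± 0.31, adjusted p = 0.0034). TNFAIP6, a cumulus matrix protein, was at 235 FPKM in 4C 1 and at 2.65 and 2.07 FPKM in the other 4-cell libraries. The defining markers FOXL2, AMH, AMHR2 and LHCGR stayed under 0.5 FPKM in all 6 libraries. AMH was listed at 0 in all 3 of the 4-cell libraries. Of the 464 lower genes, 303 had their highest 4-cell value in 4C 1, as did 416 of the 875 higher genes and 4146 of all 10727 tested. Without that library 340 genes were called lower. The part of cumulus RNA in the losses was not tested. Sperm markers were near 0, with 3 of 18 tested and none called by limma or limma-voom (1 higher at an unadjusted p under 0.05).

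Abundant transcripts that fell included genes of chromosome segregation, the proteasome and centrioles. PTTG1 encodes securin, which holds back sister chromatid separation. It was among the most abundant transcripts of the 4-cell embryo, at 19954, 18582 and 19587 FPKM, and was at 9788, 7786 and 8296 FPKM at 16 cells (-1.17 ± 0.21, adjusted p = 0.00023). Under quantile normalization, which gives every library the same ranked values, its difference was -0.24 (adjusted p = 0.44). CETN3, a centrin of the centriole, was at 1449, 1216 and 1499 FPKM at 4 cells and at 157, 383 and 805 FPKM at 16 cells (-1.92 ± 0.33, adjusted p = 0.00021). DYNC2LI1, of the dynein that runs in cilia, was at 1115, 1021 and 969 FPKM at 4 cells and at 403, 499.6 and 507 FPKM at 16 cells (-1.14 ± 0.34, adjusted p = 0.016). Neither had overlapping groups, and DYNC2LI1 was not called without 4C 1 (adjusted p = 0.054). DEPDC7 was at 1606, 1182 and 741 FPKM at 4 cells and at 364, 377 and 926 FPKM at 16 cells (-1.15 ± 0.31, adjusted p = 0.0083). Its groups overlapped through 16C 3, and it was not called without 4C 1 (-0.90, adjusted p = 0.065), 16C 1 (-0.92) or 16C 2 (-0.95).

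Among the proteasome subunits, PSMA4 and PSMA5 fell and PSMA1 rose. PSMA4 was at 2826, 2304 and 2094 FPKM at 4 cells and at 496, 476 and 2024 FPKM at 16 cells (-1.61 ± 0.38, adjusted p = 0.0039). PSMA5 was at 1763, 1066 and 1014 FPKM at 4 cells and at 332, 275 and 868 FPKM at 16 cells (-1.53 ± 0.31, adjusted p = 0.0011). In both the losses were clear in 16C 1 and 16C 2 and slight in 16C 3. PSMA1 was at 98.0, 27.9 and 33.1 FPKM at 4 cells and at 94.1, 132 and 925 FPKM at 16 cells, a rise of 2.30 ± 0.58 (adjusted p = 0.0055) with overlapping groups. Of the 36 proteasome subunits tested, 2 rose and 2 fell, and their median difference was 0.15. These shares are near those of all tested genes, and none of the 4 calls stood in the fit on the 6 libraries alone. Without 16C 3 or 4C 3 there were 1 higher and 4 lower, without 4C 2 there were 1 and 2, and without 16C 1 there were 5 and 2.

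Gene lists were read against the 8.16% of tested genes that rose, the 4.33% that fell and the median difference of -0.02 over all of them. For limma-voom the background was 960 genes higher and 685 lower of 10722. The counts at an unadjusted p under 0.05 are given without a background, so they only describe the lists. Of 18 tested genes known from zygotic genome activation, 11 rose and none fell by the limma test, with a median difference of 1.56. At an unadjusted p under 0.05 there were 15 higher and 0 lower, and limma-voom called 14 and 0. Beside the genes above, TFAP2C, a transcription factor of trophectoderm and germ cells, was at 0.0811, 0 and 0.182 FPKM at 4 cells and at 12.8, 20.2 and 15.8 FPKM at 16 cells (3.97 ± 0.17, adjusted p = 4.8e-14). OTX2, a homeobox factor, was at 0, 0.085 and 0 FPKM at 4 cells and at 4.43, 10.7 and 23.2 FPKM at 16 cells (3.49 ± 0.34, adjusted p = 6.7e-08). SLC34A2, a phosphate transporter, and KLF5, KLF4, TBX3 and GATA6, which are transcription factors, rose by 1.20 to 3.14. EIF1AX and HSPA1A, early activated genes in other mammals, did not pass the test: EIF1AX was at 1139, 185 and 227 FPKM at 4 cells and at 282, 411 and 694 FPKM at 16 cells (0.25 ± 0.48, adjusted p = 0.76).

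Of 16 tested genes of the inner cell mass and pluripotency, 9 rose and 1 fell, with a median of 1.22. This list shares ZFP42, KLF17, KLF4 and TBX3 with the list above. PRDM14, a repressor that guards pluripotency, was listed at 0 in all 4-cell libraries and was at 12.7, 10.7 and 15.02 FPKM at 16 cells (3.78 ± 0.18, adjusted p = 2.9e-13). DPPA4, a chromatin protein of pluripotent cells, was at 5.69, 2.24 and 0.470 FPKM at 4 cells and at 17.1, 9.51 and 24.5 FPKM at 16 cells (2.42 ± 0.44, adjusted p = 0.0003). STAT3, the transducer of LIF signalling, fell by 1.08 ± 0.20 (adjusted p = 0.00041) with 44.0, 38.3 and 37.3 FPKM at 4 cells and 19.3, 15.9 and 19.8 FPKM at 16 cells. The groups did not overlap in these 3 genes, and STAT3 was not called without 16C 2 (-0.99). The core pluripotency factor POU5F1 did not pass the test, at 1.40, 0.82 and 1.3 FPKM at 4 cells and at 2.90, 1.55 and 3.32 FPKM at 16 cells (0.70 ± 0.27, adjusted p = 0.063). NANOG and SOX2 were below the filter.

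Lineage genes outside this group moved little. Of 21 tested trophectoderm genes, 2 rose (TFAP2C and KLF5) and 1 fell (KLF6, at -0.99 and not called without 16C 3), with a median of 0.21. GATA3, an early trophectoderm factor, was at 1.64, 3.39 and 1.89 FPKM at 4 cells and at 2.39, 3.08 and 2.85 FPKM at 16 cells (0.22 ± 0.22, adjusted p = 0.51). Of 11 tested primitive endoderm genes only GATA6 rose, and that call was lost without 16C 3 (0.97). The median of that list was -0.23.

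Most oocyte transcripts had negative differences that missed the threshold. Of 40 tested oocyte and maternal-effect genes, 3 fell and 1 rose, with a median of -0.41. A positive difference was seen in 5187 of all 10727 tested genes and in 8 of these 40. At an unadjusted p under 0.05 there were 14 lower and 2 higher, and limma-voom called 3 and 1. The summed level of the 43 in the table was 13064 to 15136 FPKM at 4 cells and 8827 to 10303 FPKM at 16 cells, without overlap. Without 16C 1, 5 members were called lower. NPM2, the nucleoplasmin of the egg, was at 224, 123 and 87.9 FPKM at 4 cells and at 45.3, 18.1 and 62.9 FPKM at 16 cells (-1.82 ± 0.40, adjusted p = 0.0019). DNMT1, the maintenance DNA methyltransferase, was at 528, 352 and 381 FPKM at 4 cells and at 139.5, 126 and 249 FPKM at 16 cells (-1.33 ± 0.24, adjusted p = 0.00025). The groups were separate in both. JAG1, a Notch ligand, fell by 1.44 ± 0.25 (adjusted p = 0.00019). The zona pellucida gene ZP3 was at 101, 99.4 and 74.5 FPKM at 4 cells and at 76.9, 104 and 85.7 FPKM at 16 cells (-0.04 ± 0.27, adjusted p = 0.93). GDF9, a growth factor of the oocyte, was at 533, 664 and 416 FPKM at 4 cells and at 579, 527 and 419.1 FPKM at 16 cells (-0.07 ± 0.31, adjusted p = 0.9). BTG4, which directs maternal RNA to deadenylation, was at 2373, 2596 and 2229 FPKM at 4 cells and at 1632, 1920 and 1830 FPKM at 16 cells (-0.42 ± 0.34, adjusted p = 0.41). The groups overlapped in ZP3 and GDF9 and were separate in BTG4. Morulae had 16.2 ± 5.30, 62.0 ± 9.89 and 97.9 ± 19.1 FPKM of these 3 transcripts (SD, n = 3). Of 23 tested genes of the germ granule and piRNA pathway 3 fell and none rose by the limma test (median -0.36), with 12 lower and 1 higher at an unadjusted p under 0.05 and 5 and 0 by limma-voom. Without 16C 1 there were 6 lower. Among them ASZ1, of the mitochondria-associated germ granule, was at 101, 89.9 and 86.3 FPKM at 4 cells and at 30.5, 35.5 and 46.1 FPKM at 16 cells (-1.3 ± 0.26, adjusted p = 0.00088).

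Factors that remove or store maternal RNA rose in part: 11 of 71 tested members were higher and none lower by the limma test, with a median of 0.12. At an unadjusted p under 0.05 there were 19 higher and 9 lower, and limma-voom called 13 and 1. YTHDF2, a reader of m6A that promotes decay, was at 3.77, 3.51 and 4.92 FPKM at 4 cells and at 20.4, 43.2 and 46.8 FPKM at 16 cells (2.82 ± 0.30, adjusted p = 2.4e-07). BTG2, an adaptor of the CCR4-NOT deadenylase, was at 1.81, 1.91 and 3.54 FPKM at 4 cells and at 20.8, 34.2 and 21.0 FPKM at 16 cells (2.94 ± 0.29, adjusted p = 6.7e-08). TUT7, which uridylates RNA tails, rose by 1.9 ± 0.22 (adjusted p = 1.2e-06), from 12.3, 14.5 and 12.1 FPKM to 37.9, 55.1 and 63.0 FPKM. No 16-cell library overlapped the 4-cell range in these genes.

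**Figure D3:**
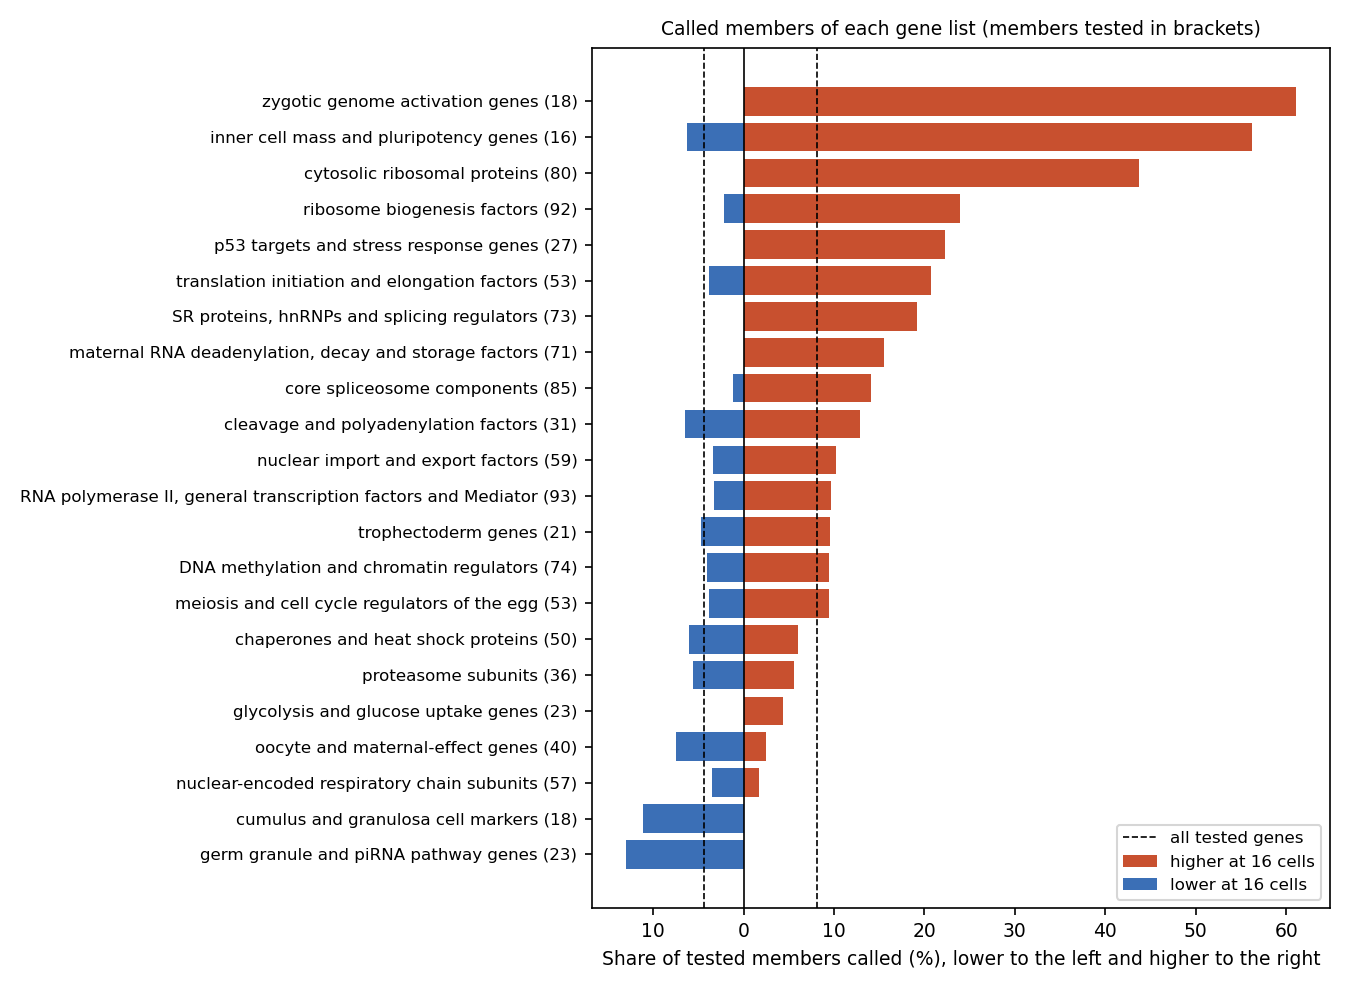
Share of the tested members of each gene list that was higher (red, to the right) or lower (blue, to the left) at 16 cells, for lists with at least 15 tested members, whose number is in brackets. Dashed lines give the shares of all tested genes, 8.16% higher and 4.33% lower. Activation, pluripotency and ribosomal protein genes have the largest shares of higher members.

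Splicing factors, the subject of the series, were read as 2 lists, and the difference between the lists was not tested. Of 73 tested SR proteins, hnRNPs and splicing regulators, 14 rose and none fell by the limma test (median 0.30), with 33 higher and 10 lower at an unadjusted p under 0.05 and 16 and 2 by limma-voom. Of 85 core spliceosome components, 12 rose and 1 fell (median 0.23), and limma-voom called 17 and 2. TRA2B, a splicing activator, was at 12.3, 6.72 and 7.53 FPKM at 4 cells and at 85.0, 129 and 115 FPKM at 16 cells (3.51 ± 0.26, adjusted p = 6.5e-10). HNRNPAB was at 2.95, 0.998 and 2.64 FPKM at 4 cells and at 27.5, 39.4 and 60.6 FPKM at 16 cells (3.76 ± 0.28, adjusted p = 1.1e-09). HNRNPA1, a repressor of splice sites, was at 66.0, 60.3 and 70.5 FPKM at 4 cells and at 295, 668 and 624.8 FPKM at 16 cells (2.91 ± 0.24, adjusted p = 4.5e-09). SRSF3 and SRSF5, of the SR family, rose by 2.38 ± 0.20 (adjusted p = 8.2e-09) and 2.57 ± 0.22 (adjusted p = 9.1e-09). The stages were clearly separate in all of these, and HNRNPA1 has near-identical copies in mammalian genomes, between which reads can be split. SNRPB, a core protein of the spliceosomal snRNPs, was at 3.33, 3.39 and 3.25 FPKM at 4 cells and at 16.7, 22.1 and 33.1 FPKM at 16 cells (2.48 ± 0.25, adjusted p = 1.3e-07). CWC22, of the exon junction pathway, was the core component that fell, by 1.22 ± 0.20 (adjusted p = 0.00011), from 54.3, 52.8 and 48.8 FPKM to 22.3, 17.1 and 26.8 FPKM.

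Without 16C 3, 15 splicing regulators rose and 1 fell, and 10 core components rose and 5 fell. Among the core components 2 fell without 4C 2, 4C 3 or 16C 1. The fit on the 6 libraries alone called 12 regulators and 3 core components higher.

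Cleavage and polyadenylation factors, the other subject of the series, stayed near the background: 4 of 31 rose and 2 fell, with a median of 0.06. Both losses were lost without 4C 1 or 16C 1, and 1 of them without 16C 2. RPRD1A, which binds the tail of RNA polymerase II, was at 1.78, 3.38 and 3.28 FPKM at 4 cells and at 32.9, 58.0 and 33.7 FPKM at 16 cells (3.46 ± 0.23, adjusted p = 1.1e-10). CPSF2, a subunit of the cleavage complex, fell by 1.26 ± 0.34 (adjusted p = 0.0092), from 45.3, 30.6 and 31.5 FPKM to 7.73, 10.7 and 33.1 FPKM. Its groups overlapped, and the call was lost without 4C 1 (adjusted p = 0.053) or 16C 1 (adjusted p = 0.065). Of 93 genes of RNA polymerase II, its general factors and Mediator, 9 rose and 3 fell (median 0.09). Without 16C 3 there were 7 higher and 6 lower, without 16C 1 there were 12 and 1, and the lower count was 5 without 4C 3 and 1 without 4C 1 or 16C 2. ELL2, an elongation factor, was at 13.5, 10.4 and 11.5 FPKM at 4 cells and at 51.7, 68.8 and 166 FPKM at 16 cells (2.74 ± 0.32, adjusted p = 9.3e-07). TCEA1, another elongation factor, went the other way, at 142, 139 and 145 FPKM at 4 cells and at 47.0, 45.1 and 77.4 FPKM at 16 cells (-1.36 ± 0.23, adjusted p = 0.00014).

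Of the lists with at least 50 tested members, that of ribosomal proteins had the largest share of rising genes. Of its 80 tested members 79 had a positive difference, against 5187 of all 10727 tested genes. By the limma test 35 members rose and none fell, and their median was 1.11. At an unadjusted p under 0.05 there were 58 higher and 0 lower, and limma-voom called 31 and 0. Together they took 2.05%, 1.34% and 1.62% of the summed FPKM at 4 cells and 3.03%, 2.78% and 5.23% at 16 cells. All 16-cell libraries were above all 4-cell libraries, and an exact two-sided permutation test gave p = 0.1, the smallest possible. FAU, which encodes a ribosomal protein fused to a ubiquitin-like one, was at 89.6, 28.4 and 29.5 FPKM at 4 cells and at 343, 498 and 515 FPKM at 16 cells (3.36 ± 0.37, adjusted p = 4.2e-07). RPS18 was at 77.0, 37.9 and 57.5 FPKM at 4 cells and at 156, 158 and 397 FPKM at 16 cells (1.93 ± 0.42, adjusted p = 0.0017). In both genes the groups were apart. Without 16C 3, which had the highest ribosomal share, 14 members rose and the median was 0.71, and without 4C 2 there were 16. The fit on the 6 libraries alone called 7. Ribosomal protein genes have many processed copies, between which reads can be split.

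Ribosome assembly and translation factors also rose more often than all tested genes. Of 92 ribosome biogenesis factors, 22 rose and 2 fell (median 0.35), and without 16C 3 there were 12 higher. FBL, the methyltransferase of box C/D snoRNPs, was at 3.02, 1.76 and 1.12 FPKM at 4 cells and at 8.24, 15.1 and 30.7 FPKM at 16 cells (2.55 ± 0.30, adjusted p = 9.3e-07). NOP16, a nucleolar protein, was at 66.0, 39.6 and 40.6 FPKM at 4 cells and at 142, 402 and 699 FPKM at 16 cells (2.83 ± 0.42, adjusted p = 3.2e-05). Of 53 translation factors, 11 rose and 2 fell (median 0.50), and without 16C 3 there were 4 lower. ETF1, the release factor that ends translation at stop codons, was at 5.09, 8.40 and 8.62 FPKM at 4 cells and at 89.2, 139 and 167 FPKM at 16 cells (3.97 ± 0.25, adjusted p = 8.5e-11). The 2 stages were separate in FBL, NOP16 and ETF1. The fit on the 6 libraries alone called 7 biogenesis factors and 4 translation factors higher.

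Stress response genes rose in 6 of 27 tested cases and fell in none by the limma test (median 0.13), with 9 higher and 2 lower at an unadjusted p under 0.05 and 6 and 0 by limma-voom. PMAIP1, a proapoptotic target of p53, was at 1.89, 8.35 and 15.6 FPKM at 4 cells and at 174, 193 and 352 FPKM at 16 cells (4.90 ± 0.52, adjusted p = 2.7e-07). ATF3, a transcription factor induced by stress, was at 2.62, 0.208 and 0.389 FPKM at 4 cells and at 19.8, 21.7 and 15.9 FPKM at 16 cells (3.45 ± 0.33, adjusted p = 5.4e-08). The groups were far apart in both. BTG2, DDIT3, FOS and GADD45A were the other 4. GADD45A was not called without 4C 2, 16C 2 or 16C 3, nor on the TPM scale (adjusted p = 0.056). In the fit on the 6 libraries alone GADD45A (adjusted p = 0.12) and DDIT3 (adjusted p = 0.083) were not called.

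The remaining lists were closer to the background. Of 74 chromatin regulators, 7 rose and 3 fell (median 0.12), and 11 rose without 16C 1. Among them KDM1A, the histone demethylase LSD1, fell by 1.46 ± 0.23 (adjusted p = 7.4e-05), from 92.0, 62.7 and 69.7 FPKM to 19.7, 22.5 and 40.5 FPKM, with no overlap. Of 53 meiosis and cell cycle genes of the egg, 5 rose and 2 fell (median -0.10), with CCNE1, the cyclin of S phase entry, at 14.2, 15.9 and 19.5 FPKM at 4 cells and at 33.0, 51.2 and 42.9 FPKM at 16 cells (1.29 ± 0.26, adjusted p = 0.00078). Nuclear import and export factors gave 6 higher and 2 lower of 59 (median 0.09), but 4 and 6 without 16C 3 and 10 and 2 without 16C 1. Chaperones gave 3 and 3 of 50 (median -0.04), with 5 and 1 without 16C 1, 3 and 1 without 16C 2 and 5 and 2 without 16C 3. Of 23 glycolysis genes 1 rose (3 without 16C 3), the glucose transporter gene SLC2A3, from 12.3, 17.8 and 19.4 FPKM to 45.8, 80.2 and 80.0 FPKM (1.97 ± 0.26, adjusted p = 6.4e-06). Of 57 nuclear-encoded subunits of the respiratory chain, 1 rose and 2 fell (median -0.22), and there were 11 lower without 16C 3 and 5 lower without 4C 2. The median of these subunits was thus below that of the tested genes, while that of the 12 tested mitochondrial-encoded genes was 0.94.

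The 8-cell libraries divide the comparison into 2 steps. The 4-cell and 16-cell libraries are each shared between a step and the full comparison, and the 8-cell libraries between the steps, so the values are given side by side with no test. The genes that rose changed by a median of 0.11 from 4 to 8 cells and of 1.56 from 8 to 16 cells, on the log2(FPKM + 1) scale. The genes that fell changed by a median of -0.46 and then of -0.84. By the 8-cell stage 94 of the 875 rising genes (10.7%) and 151 of the 464 falling genes (32.5%) had covered more than 50% of their difference. Over all tested genes, of which 12.5% were called, the share was 38.4%. Genes that were not called can have a full difference near 0, where this fraction has no meaning. The 38.4% is therefore no baseline for the called genes. Of the falling genes 434 had a lower mean at 8 cells than at 4 cells, as did 4819 of all 10727 tested. Of the rising genes 523 had a higher one, as did 5880 of all tested. ZSCAN4 and SUPT4H1 were among the early gains, with 8-cell means of 108 ± 92.7 and 96.5 ± 72.4 FPKM (SD, n = 4). ARGFX, GCSH, BECN2, KLF17, ZFP42 and GM2A had 8-cell means of 2.3 FPKM (GCSH) or less.

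**Figure D4:**
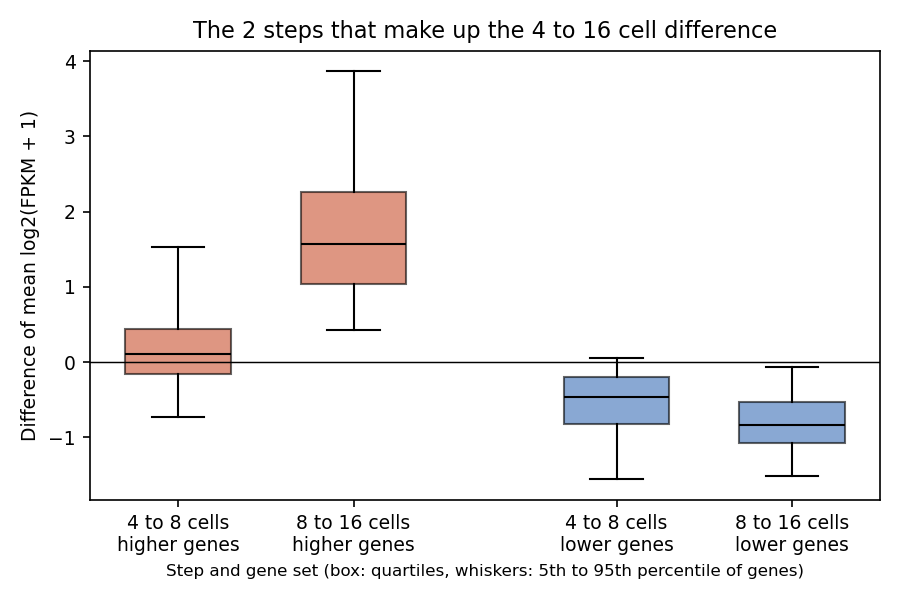
Differences of mean log2(FPKM + 1) from 4 to 8 cells and from 8 to 16 cells for the 875 higher genes (red) and the 464 lower genes (blue); boxes give quartiles and whiskers the 5th to 95th percentile of genes. The higher genes change mostly in the second step (medians 0.11 and 1.56) and the lower genes in both (medians -0.46 and -0.84).

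Stages that were not compared here give the longer course. The median level of the rising genes was 1.65 FPKM in MII oocytes, 2.58 at 4 cells, 16.4 at 16 cells, 31.1 in morulae and 12.9 in expanded blastocysts. Among the 875, the stage with the highest mean was the morula for 432 genes, the 16-cell stage for 186 and the early blastocyst for 170. Over all 10727 tested genes these counts were 1978, 983 and 1991. ZIM3, ZSCAN4 and ZNF596 were already lower again in morulae, with means of 86.1 ± 19, 104.7 ± 51.0 and 73.4 ± 25.4 FPKM (SD, n = 3). ZFP42 was higher, at 161 ± 43.8 FPKM (SD, n = 3). The median of the falling genes was 10.7 FPKM in MII oocytes, 14.0 at 4 cells, 4.85 at 16 cells, 4.30 in morulae and 5.27 in expanded blastocysts. Of the 464, 352 had their highest mean in MII oocytes or at the 2-cell or 4-cell stage, as did 2995 of all tested genes. The falling genes were chosen as higher at 4 cells than at 16 cells, which favours an early highest stage. Expanded blastocysts were highest for 64 of the 464 and for 1251 of all tested genes.

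The share of the summed FPKM shows how much of the library these genes made up. The rising genes took 5.03% ± 0.23 at 4 cells (SD, n = 3), 5.63% ± 0.69 at 8 cells (SD, n = 4), 17.4% ± 4.88 at 16 cells (SD, n = 3) and 31.1% ± 1.10 in morulae (SD, n = 3). At 16 cells the libraries ranged from 13.4% to 22.8%, with the top in 16C 3. The falling genes took 10.3% ± 0.88 at 4 cells, 7.68% ± 0.95 at 8 cells, 4.00% ± 0.30 at 16 cells and 1.77% ± 0.08 in morulae. These genes were chosen for the 16-cell and 4-cell values, so only the other stages add to what the calls contain.

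**Figure D5:**
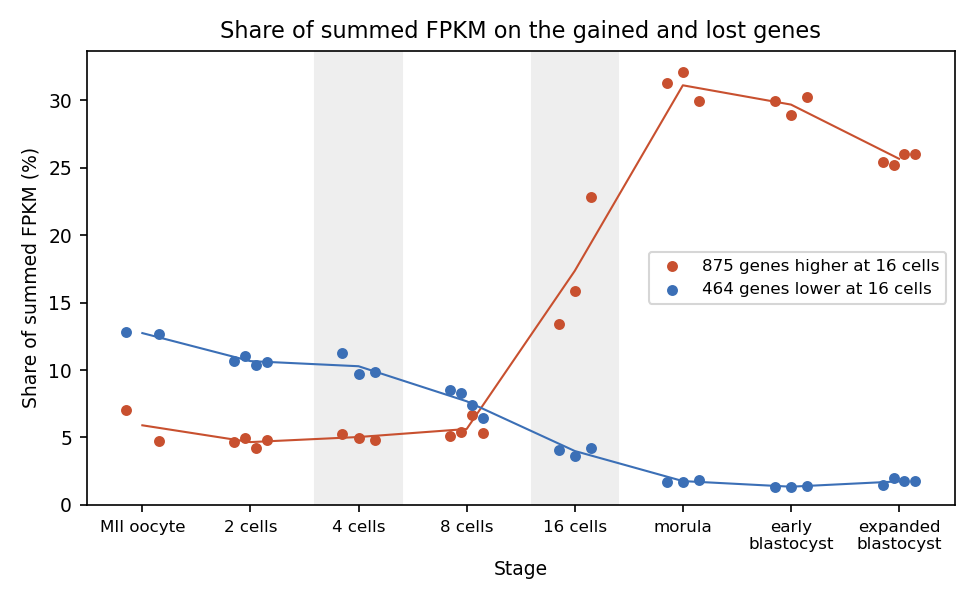
Share of the summed FPKM of each library, in percent, on the 875 genes higher at 16 cells (red) and the 464 lower genes (blue), by stage; points are libraries, lines join stage means and the compared stages are shaded. The red share stays near 5% up to the 8-cell stage and is 31.1% in morulae, and the blue share goes from 10.3% at 4 cells to 1.77% in morulae.

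Windows whose stages share no library with the 2 stages compared were tested in the same limma fit. Each gene's estimate of the spread came from all 26 libraries, so calls in these windows were not independent of those above. Morulae were set against 8-cell embryos, where 28.2% of all tested genes were called higher and 27.9% lower. Of the 875 rising genes, 718 (82.1%) were higher in that window and 23 (2.63%) lower. Of the 464 falling genes, 212 (45.7%) were lower and 58 (12.5%) higher. Without 16C 3 the share of rising genes that were higher was 66.1%, and the share of falling genes that were lower was 35.1%. In the earlier window, 2-cell embryos against MII oocytes, 7.01% of all tested genes were higher and 3.0% lower. Of the rising genes 3.89% were higher and 4.11% lower. Of the falling genes 9.91% were higher and 1.94% lower. These differences from all tested genes were not tested.

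The genes that rose had the shorter gene models. Their median recovered gene length was 1806 bases (874 genes with a length), against 2612 bases for the genes that fell (463 genes) and 2771 bases for all tested genes (10722 genes). The quartiles were 953 to 3087 bases for the rising genes, 1330 to 4400 for the falling genes and 1498 to 4756 for all. Uncharacterized loci, with LOC symbols, made up 31.1% of the rising, 21.3% of the falling and 18.8% of all tested genes. Small nucleolar RNA genes, which guide rRNA modification and mostly lie within introns of other genes, made up 2.63% of the rising genes, where 23 of the 89 tested were found, and 0.65% of the falling ones. Long noncoding RNA genes made up 3.54% of the rising, 7.11% of the falling and 4.00% of all tested genes. Calls were made at all levels: among genes with a mean of 1 to 3 FPKM over the 6 libraries 6.71% rose and 3.70% fell, and above 100 FPKM 12.5% rose and 3.55% fell.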

How the data were processed

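Whole-embryo Smart-seq2 libraries of 8 stages were analysed from 1 table of FPKM per gene that the authors deposited. Per the submitters' processing notes, HISAT2 2.1.0, featureCounts 2.0.1, SAMtools 1.9 and fastp 0.23.4 were used. Build, annotation and strand use: not given in the sources used here. No column was left unused, and no 2 libraries held identical values. Of 30186 row names, 25456 matched the RefSeq table of assembly ARS-UI_Ramb_v3.0, which served for names and gene classes only.

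The main test was limma 3.58.1 (R 4.3.3) on log2(FPKM + 1), which understates changes of low genes. One model of 8 stage means was fitted over all 26 libraries, so the stages share 1 estimate of the spread, with an intensity trend, and Benjamini-Hochberg adjustment ran over the 10727 genes. Gene lengths and whole reads were recovered from the FPKM steps: 22622 of 23577 genes gave a length, and the reads summed to 99.9% of each library's implied depth. They served for depth and for limma-voom. Both procedures were tested on simulated data.

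Named genes were, in each direction, the 10 largest called differences with no overlap of libraries, the 6 most abundant called genes, the 6 most abundant that crossed 1 FPKM, and members of lists, leaving out unnamed loci. The genes compared, the 25 lists and the tests were chosen with earlier results of these data known. The list of blood and immune cell markers is not reported here. A planned search of promoter sequences was not run, since sequences were not used here. Alternatives covered scaling, pseudocount, filter, samples fitted, trend, a replicate block, limma-voom and leaving out each library.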

Additional observations from a re-analysis of the deposited data

Results flagged for a closer look

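The 8-cell libraries of 4 named genes had 1 value apart from the other 3, by the gap to the nearest library over the range of the group; 41 such groups of 4 were examined, and chance flags about 1 in 20. In 3 of the 4 genes (ATP6, CYTB and DYNC2LI1) it was the same library, 8C 3, and in CETN3 it was 8C 4. ATP6 was at 4257 FPKM in 8C 3 and at 2387 to 2706 FPKM in the others. CYTB was at 1082 FPKM in 8C 3 and at 476 to 551 FPKM in the others. CETN3 was at 780.1 FPKM in 8C 4 and at 1051 to 1057 FPKM in the others. DYNC2LI1 was at 939.9 FPKM in 8C 3 and at 690.5 to 711 FPKM in the others.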

How the results depend on the processing

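The direction of every called gene that is named, or is a called member of a list, was the same under all 18 alternative settings in which the gene was tested. Counts of genes higher and lower were 480 and 171 with a pseudocount of 5, and 360 and 137 with only the 4-cell and 16-cell libraries. With no minimum difference, an alternative chosen after seeing the data, they were 1320 and 1137. On the TPM scale 808 genes were lower. Leaving out each library gave 781 to 1107 genes higher and 340 to 613 lower, and 513 of the 875 gains and 194 of the 464 losses were called in all 6 of these fits. A fit with the replicate block over the 6 libraries called 222 genes higher and 25 lower, and 36 and 2 members of lists. Libraries of the same number had correlations of deviations of -0.17, 0.08 and -0.15, and libraries of different number -0.23 to 0.28. Deviations from a mean of 3 libraries are tied to each other, so these values cannot show whether the numbers pair samples.

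Members of lists called higher and lower were 163 and 34. They were 68 and 13 with only the 2 stages fitted, and the lower count was 55 on the TPM scale, 54 under quantile normalization and 21 with a pseudocount of 5. Leaving out each library gave 119 to 205 and 27 to 57. Genes gained and lost past the detection threshold ranged from 249 to 360 and from 133 to 186 without each library. The share of summed FPKM on rising genes rose by 12.3 percentage points, by 7.98 with genes called on the 2 stages alone, and by 9.76 to 13.7 without each library. The share on falling genes changed by -6.28 points, by -7.15 on the TPM scale, by -3.99 with the 2 stages alone and by -7.10 to -5.21 without each library. The share of rising genes higher in morulae than at 8 cells was 79.3% with calls on the TPM scale and 66.1% to 85.2% without each library. The share of falling genes lower in that window was 58.4% with the 2 stages alone and 35.1% to 55.0% without each library. The cause of these changes was not tested. Fits with fewer libraries estimate the spread from fewer values. The main fit also shares 1 estimate of the spread among 8 stages, which need not spread alike. Pearson r was 0.878 to 0.949 among the 16-cell libraries and 0.960 to 0.974 among the 4-cell libraries. Where a stage spreads more than the shared estimate, the p-values of the main fit can be too small. Depth was similar in the compared libraries, and precision rests on 3 libraries a stage.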
